A study of Sus scrofa with 18 samples.

Results

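The glycine receptor and transport genes were followed in the developing brain of the domestic pig (Sus scrofa). The list held 7 genes: the alpha subunit genes GLRA1, GLRA2 and GLRA3, the beta subunit gene GLRB, the scaffold gene GPHN, and the transporter genes SLC6A5 and SLC6A9. Genes were chosen by name in the gene table, which has 31908 genes, and all 7 were found. Total RNA came from the whole brains of 18 untreated fetuses, each sequenced as its own library. Dams were Landrace × Large White gilts inseminated from the commercial line LR-M6. Brains were collected on gestation day (GD) 45, 60 or 90, with 3 female and 3 male fetuses on each day, so that the groups were female GD45, male GD45, female GD60, male GD60, female GD90 and male GD90. The labels name no dam. Fetuses of a day fell into 3 litter sizes, with 1 female and 1 male at each size, and each such pair was treated as littermates. Fetuses are named here by sex, day and the number in the labels. A whole brain pools all regions and cell types, and in such material fewer cells of a type and less RNA per cell cannot be told apart.

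Glycine is a fast inhibitory transmitter, above all in the spinal cord and brain stem. Its receptor is a pentameric chloride channel made of alpha subunits alone or of alpha with beta subunits, and the beta subunit binds gephyrin, the scaffold that holds the receptor at synapses. In many mammals the alpha 2 subunit prevails before birth and gives way to alpha 1 as the spinal cord and brain stem mature. In immature neurons the channel can excite instead of inhibit, because chloride inside the cell is high until the cotransporter KCC2 (SLC12A5) lowers it. A pair of transporters clears glycine from the cleft: GlyT2 (SLC6A5) of glycinergic nerve endings and GlyT1 (SLC6A9), found mainly on glia.

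Libraries held between 15118843 and 19729783 counts in genes (median 16413097), so 3 counts, the limit that a count of 0 allows, corresponded to 0.152 to 0.198 CPM, the usual scaling of counts by the library total. These limits, and the counting intervals given later, cover counting error only. Of 8 neuronal markers, 4 rose from GD60 to GD90 in each sex and 1, TUBB3, fell in males, while their summed CPM, most of it from TUBB3 and STMN2, lay between 6609 and 9786 in all libraries. All 5 tested oligodendrocyte markers rose from GD60 to GD90 in both sexes. Over that step 13.7% of all genes tested rose in females and 18.5% in males, and 16.0% fell in males. MOG and OPALIN, at most 0.602 and 0.595 CPM at GD60, passed the filter on low counts only through GD90 libraries. Their rise is not independent of that filter. Libraries differed in coverage along transcripts. Over 6082 genes, the median ratio of read density in the first to that in the last exon was 0.782 to 0.799 in the 3 male GD90 libraries and 0.422 to 0.694 in the 3 female GD90 libraries, with the lowest value, 0.247, in male GD45 fetus 17. Summed CPM of 25 HOX genes, which mark the hindbrain and spinal cord, ranged from 0.131 to 121.7 at GD45, from 0.0507 to 4.22 at GD60 and from 0.661 to 2.31 at GD90. The GD45 libraries therefore differed widely in how much of these posterior transcripts they held.

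The 3 alpha subunit genes are close relatives, so the sequence that tells them apart is shown first. Each gene has a coding exon of 215 bases at the same place, which holds the codons of the pore-lining segment. The exons were read from the Sscrofa11.1 genome, 5′ to 3′ on the plus strand, and capitals mark bases of GLRA1 and GLRA3 that differ from GLRA2.
GLRA2 (chrX:11182999-11183213): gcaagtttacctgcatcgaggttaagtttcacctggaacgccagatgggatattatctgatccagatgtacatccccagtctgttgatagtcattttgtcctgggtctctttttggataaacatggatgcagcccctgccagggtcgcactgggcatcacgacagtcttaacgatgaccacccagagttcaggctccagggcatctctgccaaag
GLRA1 (chr16:71214609-71214823): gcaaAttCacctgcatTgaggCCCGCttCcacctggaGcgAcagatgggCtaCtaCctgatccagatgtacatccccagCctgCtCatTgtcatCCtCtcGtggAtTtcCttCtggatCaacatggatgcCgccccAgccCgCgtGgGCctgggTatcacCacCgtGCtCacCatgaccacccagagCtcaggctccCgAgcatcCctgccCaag
GLRA3 (chr14:15560054-15560268): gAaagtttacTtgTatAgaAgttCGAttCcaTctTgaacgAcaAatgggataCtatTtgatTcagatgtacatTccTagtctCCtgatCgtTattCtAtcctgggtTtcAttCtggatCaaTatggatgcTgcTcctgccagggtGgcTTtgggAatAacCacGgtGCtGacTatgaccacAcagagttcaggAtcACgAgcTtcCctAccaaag
GLRA1 differed from GLRA2 at 46 bases (identity 78.6%) and GLRA3 differed at 50 (identity 76.7%). Over all annotated exons, the longest run that GLRA2 shared exactly was 23 bases with GLRA1 and 20 bases with GLRA3, against sequenced reads of 150 bases. These exons are of equal length, but the exon table held 23.3% of the gene's counts for GLRA2, 80.3% for GLRA1 and 85.8% for GLRA3. Exon counts of different genes therefore do not compare directly. Summed over the 18 libraries, the exon of GLRA2 held 736 counts, that of GLRA1 held 52 and that of GLRA3 held 12. By day, the exon of GLRA3 held 0 counts at GD45, 2 at GD60 and 10 at GD90, while that of GLRA2 held 239, 260 and 237.

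GLRA2, the fetal alpha subunit gene (chrX:11111822-11288592, plus strand), was the most abundant alpha gene per length at each day. It made up 89.3% to 96.5% of the summed FPKM of GLRA1, GLRA2 and GLRA3 in each library. It ranged from 21.3 to 51.2 CPM at GD45 (median 45.0), from 41.6 to 59.4 CPM at GD60 (median 54.4) and from 39.7 to 45.0 CPM at GD90 (median 42.7). The ranges of the 3 days overlapped, and the lowest 2 values were those of the GD45 litter of 8, with 21.3 CPM in male fetus 17 and 35.3 CPM in female fetus 18. By the labels, both brains of this litter weighed less than any other GD45 brain. No change of GLRA2 between consecutive days passed the threshold, which was an adjusted p under 0.05 over 16325 genes in edgeR's quasi-likelihood test. The estimates from GD60 to GD90 were -0.37 ± 0.19 (log2 fold change ± SE) in females and -0.10 ± 0.19 in males, with edgeR adjusted p of 0.16 and 0.714. All 3 females of GD60 (54.0 to 59.4 CPM) lay above the 3 females of GD90 (39.7 to 43.2 CPM). The decrease in females passed in 3 of 17 alternative settings, and the adjusted p reached 0.337 in the others. It passed when male GD45 fetus 17 was left out of the model (-0.36 ± 0.13, edgeR adjusted p = 0.0462). It also passed when both fetuses of its litter were left out (-0.37 ± 0.10, adjusted p = 0.0109) and when the 6 libraries were fitted alone (-0.37 ± 0.11, adjusted p = 0.0333). FANCB, on the other strand, spans the whole of GLRA2, and the sources used here do not state whether strand was used in counting.

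GLRA2 also has a pair of mutually exclusive exons of 68 bases that give 2 forms of the alpha 2 subunit. They are shown because the counts favoured the upstream exon. Capitals mark the 12 bases at which they differ.
upstream exon (chrX:11151646-11151713): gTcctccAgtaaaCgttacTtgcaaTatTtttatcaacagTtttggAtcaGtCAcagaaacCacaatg
downstream exon (chrX:11151810-11151877): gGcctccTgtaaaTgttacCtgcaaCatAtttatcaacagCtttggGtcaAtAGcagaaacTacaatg
The upstream exon held 59 counts over the 18 libraries, with 25 at GD45, 21 at GD60 and 13 at GD90. The downstream exon held 4 counts, all at GD60. Both exons are shorter than a read, and reads that also touch a neighbouring exon may be missing from the exon table, which holds 23.3% of the gene's counts, so these are counts of few reads and were not tested.

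GLRA1, the alpha subunit gene of mature spinal cord and brain stem (chr16:71141893-71230367, plus strand), was low throughout. It ranged from 1.12 to 3.12 CPM at GD45 (median 2.27), from 1.12 to 2.99 CPM at GD60 (median 2.68) and from 0.842 to 1.85 CPM at GD90 (median 1.47). In females the GD90 values were 1.08, 1.29 and 0.842 CPM, against 2.90, 1.12 and 2.99 CPM at GD60, and female GD60 fetus 5 lay among the GD90 values. In males the GD90 values of 1.66, 1.85 and 1.72 CPM lay below all 3 GD60 values, which were 2.71, 2.25 and 2.66 CPM. Neither difference passed the threshold, with estimates of -1.06 ± 0.41 in females and -0.56 ± 0.39 in males (edgeR adjusted p = 0.0657 and 0.28). No rise of GLRA1 was measured from GD60 to GD90 in whole brain. In females the decrease passed in 5 of 17 alternative settings, with an adjusted p from 0.0161 to 0.212.

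GLRA3, an alpha subunit gene of restricted expression in the brain and spinal cord (chr14:15303538-15595028, plus strand), was almost unread until GD90. At GD45 its counts were 0, 1 and 1 in females and 0, 1 and 3 in males, and at GD60 they were 0, 2 and 3 in females and 0, 0 and 4 in males. At GD90 they were 4, 5 and 12 in females and 18, 20 and 32 in males. Pooled over the 6 fetuses of a day this was 0.059, 0.0893 and 0.94 CPM. Every GD90 library of a sex lay above every earlier library of that sex, although the lowest female GD90 count equalled the highest male count of GD60. The ratio of pooled levels from GD60 to GD90 was 18.2 in males (95% exact counting interval 6.78 to 68.5) and 4.39 in females (1.61 to 14.9). In the edgeR fit the rise passed in males (4.05 ± 0.88, adjusted p = 0.00229), while the female estimate of 2.13 ± 0.94 did not (adjusted p = 0.104). The difference between the sexes in this change did not pass either (1.93 ± 1.45, edgeR adjusted p = 0.432). With the coverage of each library as a covariate, an alternative chosen after seeing the data, the male estimate fell to 2.35 with an adjusted p of 0.0849 and the female estimate rose to 2.99 with an adjusted p of 0.00582. From GD45 to GD90 GLRA3 rose in both sexes (females 3.39 ± 1.08, edgeR adjusted p = 0.0196; males 4.00 ± 0.88, adjusted p = 0.00144), and the female call was lost without female GD90 fetus 7 (2.73, adjusted p = 0.0988) or female GD45 fetus 18 (2.92, adjusted p = 0.0725). Only 4 of the 18 libraries, all of GD90, had 10 or more counts of GLRA3. It thus passed the filter on low counts only through the day on which it was high. An unnamed gene on the other strand overlaps the first exon of GLRA3.

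GLRA4, a further alpha subunit gene that lies outside the list and was added after its values were seen (chrX:84584907-84612860, minus strand) was, like GLRA3, read mainly at GD90. It held 0 to 3 counts per library at GD45, 0 to 6 at GD60 and 12 to 21 at GD90. GLRA4 too passed the filter on low counts only through its GD90 libraries. The edgeR estimates from GD60 to GD90 were 3.53 ± 0.77 in females (adjusted p = 0.00254) and 2.41 ± 0.71 in males (adjusted p = 0.0155). These values are independent neither of that filter nor of the choice of the gene, and are given as a description only. The male call was lost without male GD90 fetus 8 (2.25, adjusted p = 0.0532), without male GD60 fetus 16 (1.87, adjusted p = 0.0601) and with coverage as a covariate (2.30, adjusted p = 0.0513). TMEM31 lies within its span on the other strand.

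GLRB encodes the beta subunit, the part of the receptor that binds gephyrin (chr8:45912938-46034448, plus strand), and it rose at each step in both sexes. In females it was read at 12.1, 11.09 and 12.8 CPM at GD45, at 17.7, 19.2 and 18.8 CPM at GD60 and at 49.5, 46.8 and 50.5 CPM at GD90. In males it was read at 12.5, 10.1 and 8.31 CPM at GD45, at 14.8, 16.4 and 15.3 CPM at GD60 and at 62.8, 56.7 and 61.3 CPM at GD90. The 6 libraries of each day lay above all libraries of the day before. From GD45 to GD60 GLRB rose by 0.65 ± 0.11 on the log2 scale in females and by 0.57 ± 0.11 in males (edgeR adjusted p = 0.00235 and 0.00567). The male estimate at this step was 0.56 ± 0.18 when only the 6 libraries compared were fitted, and the call was then lost (adjusted p = 0.298). From GD60 to GD90 it rose by 1.48 ± 0.11 in females, or 2.79-fold, and by 1.94 ± 0.11 in males, or 3.83-fold (edgeR adjusted p = 1.33e-07 and 9.15e-09). From GD45 to GD90, a comparison that shares its libraries with the other 2, the log2 rise was 2.13 ± 0.11 in females and 2.51 ± 0.12 in males. Neuronal markers moved over the step from GD60 to GD90 as well: SNAP25, of the synaptic fusion machinery, rose by 1.20 ± 0.13 in females and 1.08 ± 0.13 in males, and SYT1, NEFL and RBFOX3 also rose in both sexes, whereas TUBB3, STMN2, ELAVL3 and ELAVL4 did not pass as rising in either. Their part in the rise of GLRB was not tested.

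**Figure D1:**
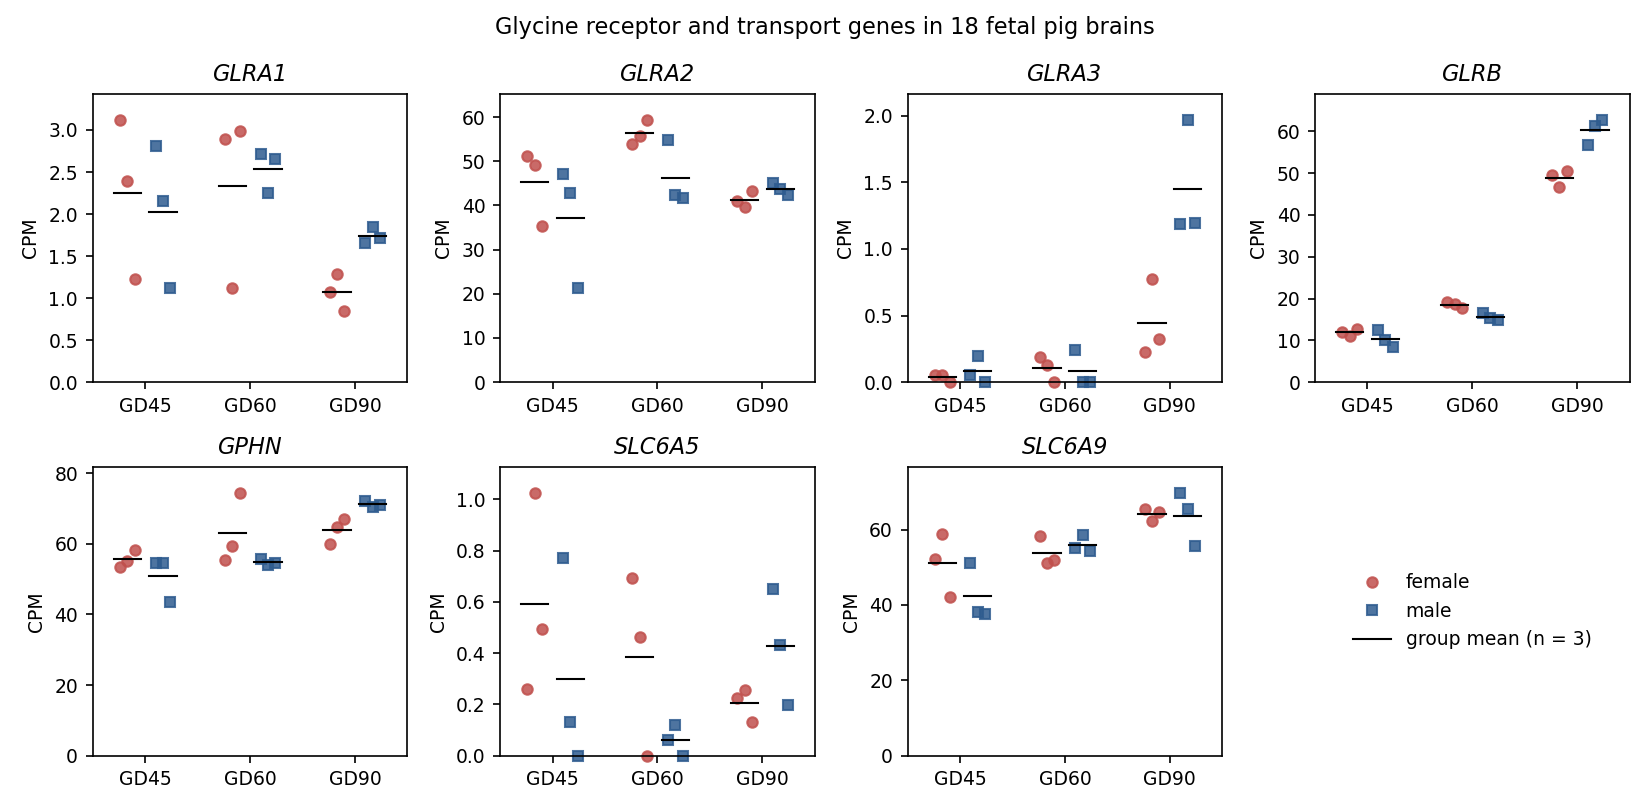
Each panel shows the CPM of 1 gene (linear axis from 0) in each of 18 fetal brains by gestation day, with females as circles, males as squares and a black line for the mean of the 3 fetuses of a group. GLRB rose at both steps, GLRA3 left the floor at GD90, GLRA2 stayed between 21.3 and 59.4 CPM, and GLRA1 and SLC6A5 reached at most 3.12 and 1.02 CPM.

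The step from GD60 to GD90 in GLRB was tested for a difference between the sexes. The male rise exceeded the female rise by 0.46 ± 0.15 on the log2 scale, with an unadjusted p of 0.00888 and an adjusted p of 0.205 in edgeR, so it did not pass. It passed in 1 of 22 alternative settings, without male GD45 fetus 17 (0.45 ± 0.14, adjusted p = 0.0465), and the adjusted p reached 0.449 in the others. None of 16325 genes passed in this comparison by edgeR, although 3232 (19.8%) had an unadjusted p under 0.05, and none of the 7 genes passed by DESeq2. At GD90 the 3 males (56.7 to 62.8 CPM) lay above the 3 females (46.8 to 50.5 CPM), with a difference of 0.24 ± 0.11 (edgeR adjusted p = 0.355). The part of the gene that was read differed along with this. The last exon of GLRB was read at 32.7 to 35.8 CPM in GD90 males and 30.1 to 40.3 CPM in GD90 females, and there the estimate had the opposite sign (-0.18 ± 0.18, edgeR adjusted p = 0.61). Exons upstream of the last were read at 14.2 to 18.4 CPM in GD90 males and 5.22 to 10.7 CPM in GD90 females, with an estimate of 1.06 ± 0.50 (edgeR adjusted p = 0.368). The male libraries were those with the most even coverage along transcripts. With coverage as a covariate the difference at GD90 was 0.25 ± 0.11 (edgeR adjusted p = 0.816) and the interaction 0.46 ± 0.16 (adjusted p = 0.357). Coverage ratios of males and females did not overlap at GD90, so sex and coverage cannot be told apart on that day.

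The rise of GLRB from GD60 to GD90 was seen on its last exon by itself. The last exon ranged from 10.4 to 15.5 CPM at GD60 and from 30.1 to 40.3 CPM at GD90, and it rose by 1.66 ± 0.19 in females and 1.48 ± 0.19 in males (edgeR adjusted p = 8.51e-06 and 2.32e-05). Upstream exons rose by 2.97 ± 0.55 in males (edgeR adjusted p = 0.000713), and the female estimate of 1.25 ± 0.52 did not pass (adjusted p = 0.0886). From GD45 to GD60 neither part passed when counted alone, with last-exon estimates of 0.43 ± 0.19 in females and 0.52 ± 0.19 in males (edgeR adjusted p = 0.198 and 0.133). With coverage as a covariate GLRB kept its calls at both steps, with estimates of 0.65 and 1.48 in females and 0.57 and 1.94 in males. These part-wise fits were chosen after seeing the data.

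**Figure D2:**
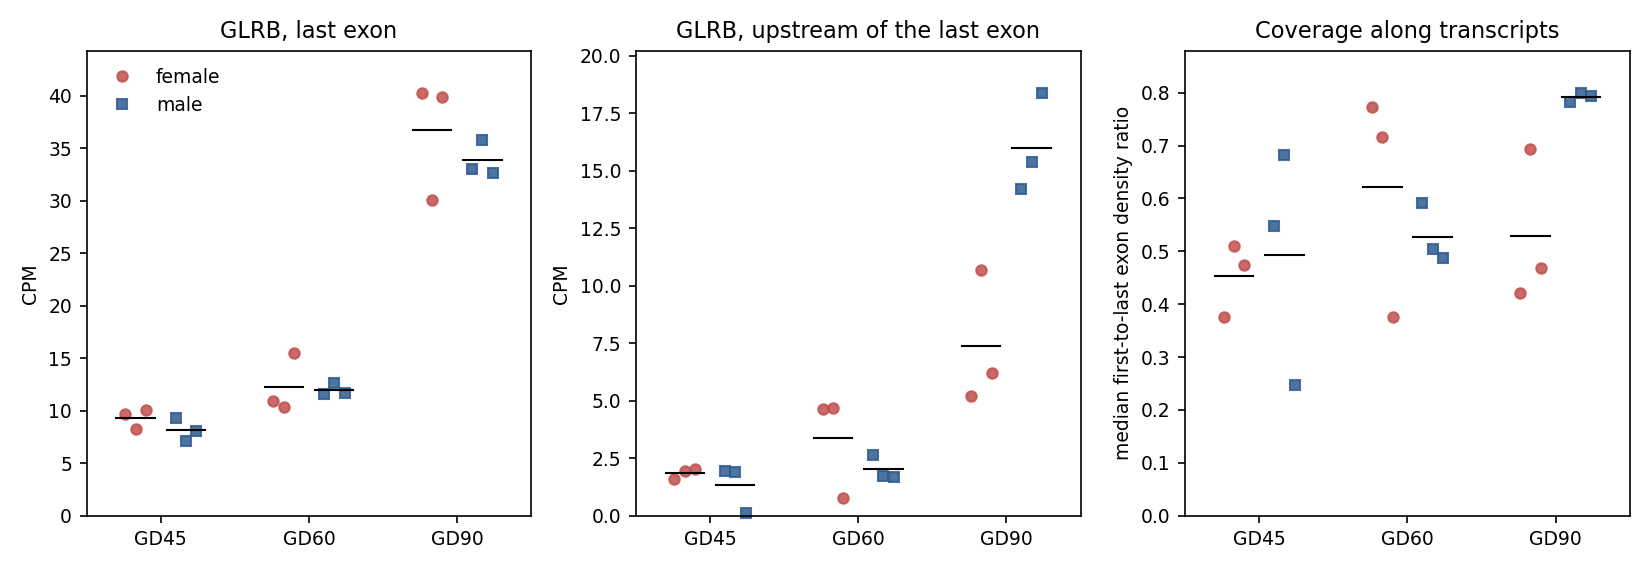
CPM of GLRB on its last exon (left) and upstream of it (middle), and the median ratio of read density in the first to the last exon over 6082 genes (right), in each of 18 libraries by gestation day, with females as circles, males as squares and a black line for the mean of each group (n = 3). On the last exon GD90 males and females overlapped, whereas upstream of it and in the coverage ratio all 3 GD90 males lay above the 3 GD90 females.

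Levels of different genes were compared per length, as FPKM, which is CPM divided by the gene length of the table in kilobases. FPKM does not correct for uneven coverage along transcripts. Exons upstream of the last held 1.61% to 36.0% of the exon counts of GLRB by library. A ratio of 1 between genes therefore does not mean equal numbers of transcripts. With CPM in its place the ratio of summed alpha to GLRB was 3.16 at GD60 and 0.828 at GD90. Alpha transcripts, summed over GLRA1, GLRA2 and GLRA3, ranged from 6.66 to 16.2 FPKM at GD45, from 13.2 to 18.5 FPKM at GD60 and from 12.3 to 14.1 FPKM at GD90. GLRB ranged from 2.16 to 3.33 FPKM, from 3.86 to 4.99 FPKM and from 12.1 to 16.3 FPKM on the same days. The ratio of summed alpha to GLRB was therefore 4.42 ± 1.11 at GD45, 3.60 ± 0.20 at GD60 and 0.938 ± 0.030 at GD90 (mean ± SD of 3 litters, with littermates averaged). Each of the 6 GD90 brains, at 0.820 to 1.01, lay below each earlier brain, the lowest of which was 3.09. The litters of GD45 and GD60 overlapped in this ratio. An exact two-sided permutation test over litter means gave p = 0.1 for GD60 against GD90, the smallest p that 3 against 3 litters allow, and an adjusted p of 0.21 over the 21 comparisons of this kind.

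**Figure D3:**
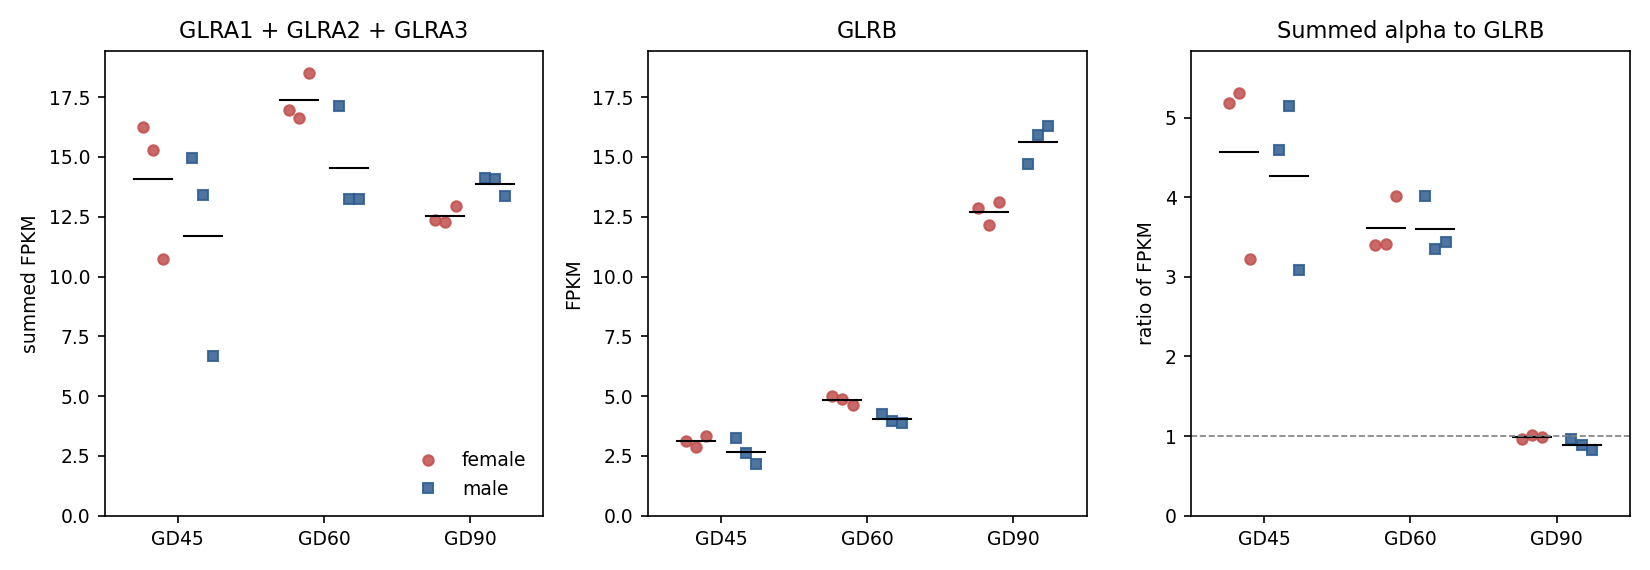
Summed FPKM of GLRA1, GLRA2 and GLRA3 (left), FPKM of GLRB on the same axis range (middle) and their ratio (right, dashed line at 1) in each of 18 libraries by gestation day, with females as circles, males as squares and a black line for the group mean (n = 3). The ratio dropped from 3.09 to 5.31 in the GD45 and GD60 brains to 0.820 to 1.01 at GD90, and GLRB climbed from at most 4.99 to at least 12.1 FPKM.

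Among GLRA1, GLRA2 and GLRA3, GLRA2 held a share of at least 89.3% in each library. The litter means of the small shares of GLRA1 and GLRA3 stood apart at GD90. GLRA4 was left out of the alpha sum. At GD90 it stood at 0.2025 to 0.3471 FPKM, beside 0.07189 to 0.6238 FPKM for GLRA3, so shares of that day would be lower with it. GLRA2 made up 92.0% ± 1.2 of alpha FPKM at GD45, 92.4% ± 1.5 at GD60 and 92.7% ± 1.4 at GD90 (mean ± SD, 3 litters), and the litters of the 3 days overlapped. The share of GLRA1 was 7.83% ± 1.18, 7.43% ± 1.55 and 5.07% ± 0.53, and every GD90 litter lay below every earlier litter. The share of GLRA3 was 0.133% ± 0.146, 0.175% ± 0.204 and 2.21% ± 0.87, and every GD90 litter lay above every earlier litter. For both shares the exact permutation p of GD90 against each earlier day was 0.1, again the smallest possible, and the adjusted p was 0.21. GLRA2 was thus the main alpha transcript on all 3 days, at both the high and the low ratios to GLRB.

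GPHN encodes gephyrin, which anchors glycine and GABA-A receptors and also carries out the last steps of molybdenum cofactor synthesis (chr7:90346590-91041189, plus strand). It varied less than its partner GLRB. It ranged from 43.6 to 58.3 CPM at GD45 (median 54.6), from 54.1 to 74.3 CPM at GD60 (median 55.5) and from 60.0 to 72.2 CPM at GD90 (median 68.8). In males the GD90 values of 71.0, 72.2 and 70.5 CPM lay above the GD60 values of 54.5, 55.6 and 54.1 CPM, and GPHN rose by 0.36 ± 0.12 (edgeR adjusted p = 0.0279). In females the GD60 and GD90 values overlapped and the estimate was 0.10 ± 0.12 (edgeR adjusted p = 0.587). The female estimate was 0.28 (edgeR adjusted p = 0.0455) without female GD60 fetus 15, whose 74.3 CPM stood apart from the rest of its day. It passed in only this 1 of 17 alternative settings. Leaving out any 1 of the 6 male libraries of GD60 and GD90 took the adjusted p of the male rise above the threshold (adjusted p = 0.0515 to 0.0835). The difference between the sexes in this change was 0.26 ± 0.17 (edgeR adjusted p = 0.359). Per length, GPHN stood at 2.79 ± 0.24 times GLRB at GD45, 2.01 ± 0.24 at GD60 and 0.721 ± 0.011 at GD90 (mean ± SD, 3 litters). GPHN overlaps 4 other genes, among them FAM71D and MPP5 on its own strand.

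SLC6A9 encodes GlyT1, the glycine transporter found mainly on glia (chr6:167268957-167301599, plus strand). It was read at 37.7 to 58.9 CPM at GD45 (median 46.5), 51.2 to 58.5 CPM at GD60 (median 54.8) and 55.6 to 69.6 CPM at GD90 (median 64.9). Neighbouring days overlapped when both sexes were pooled, although the females of GD60 and GD90 did not overlap, nor did the males of GD45 and GD60. No step between neighbouring days passed the threshold in either sex. The largest of these estimates were 0.38 ± 0.14 from GD45 to GD60 in males and 0.34 ± 0.14 from GD60 to GD90 in females (edgeR adjusted p = 0.146 and 0.0899). The female step passed in 2 of 17 alternative settings. These were without the GD45 litter of 8 (0.34, adjusted p = 0.0378) and with only its 6 libraries fitted (0.33, adjusted p = 0.0365). Over the whole period from GD45 to GD90, SLC6A9 rose by 0.43 ± 0.14 in females and by 0.54 ± 0.14 in males (edgeR adjusted p = 0.0246 and 0.00515). The female call was lost in 6 of 17 alternatives, and without female GD45 fetus 18 the estimate was 0.28 (adjusted p = 0.141).

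SLC6A5 encodes GlyT2, the transporter that marks glycinergic neurons (chr2:38770648-38826726, minus strand), and was close to the limit of detection. Its counts at GD45 were 5, 18 and 8 in females 12, 13 and 18 and 14, 2 and 0 in males 11, 14 and 17. At GD60 they were 11, 7 and 0 in females 3, 5 and 15 and 1, 2 and 0 in males 4, 6 and 16. At GD90 they were 4, 4 and 2 in females 2, 7 and 9 and 11, 7 and 3 in males 1, 8 and 10. Pooled over the 6 fetuses this was 0.462, 0.208 and 0.32 CPM. No comparison of SLC6A5 passed the threshold. The edgeR estimates from GD60 to GD90 were of opposite sign in the sexes, -0.72 ± 1.04 in females and 2.69 ± 1.24 in males (adjusted p = 0.648 and 0.102), and their difference of 3.41 ± 1.63 did not pass (adjusted p = 0.254). The male value passed in 1 of 15 alternative settings, by edgeR's likelihood ratio test (adjusted p = 0.0418). By counts, the male ratio of GD90 to GD60 was 7.26 (21 against 3 counts, 95% exact counting interval 2.17 to 38.0) and the female ratio was 0.58 (10 against 18 counts, 0.239 to 1.33). SLC6A5 made up at most 1.78% of the summed FPKM of both transporter genes in any library.

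The counts of SLC6A5 are set here beside the posterior HOX transcripts, library by library, as a description. The 3 GD45 libraries with the most summed HOX CPM, female 13 (121.7), female 18 (49.6) and male 11 (28.6), held 18, 8 and 14 counts. Female 12, male 17 and male 14, with 9.26, 4.09 and 0.131 HOX CPM, held 5, 0 and 2 counts. At GD60, female 15 and male 16, littermates by the litter size of 8, had HOX sums of 0.0507 and 0.0603 CPM and no count of SLC6A5, whereas female 3 had the most of both, with 4.22 CPM and 11 counts. Female 5 and male 4 had equal HOX sums of 2.11 CPM but 7 and 1 counts. At GD90 the HOX sums lay between 0.661 and 2.31 CPM, most of it from HOXD1 alone (0.397 to 1.48 CPM), so that the sum of this day says little of the other HOX genes. Male 1 had the highest sum and 11 counts, but male 8 held 7 counts at 1.046 CPM, while females 2 and 7 held 4 each at 1.65 and 1.67 CPM. The part that dissection or the size of the posterior brain had in these values was not tested.

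**Figure D4:**
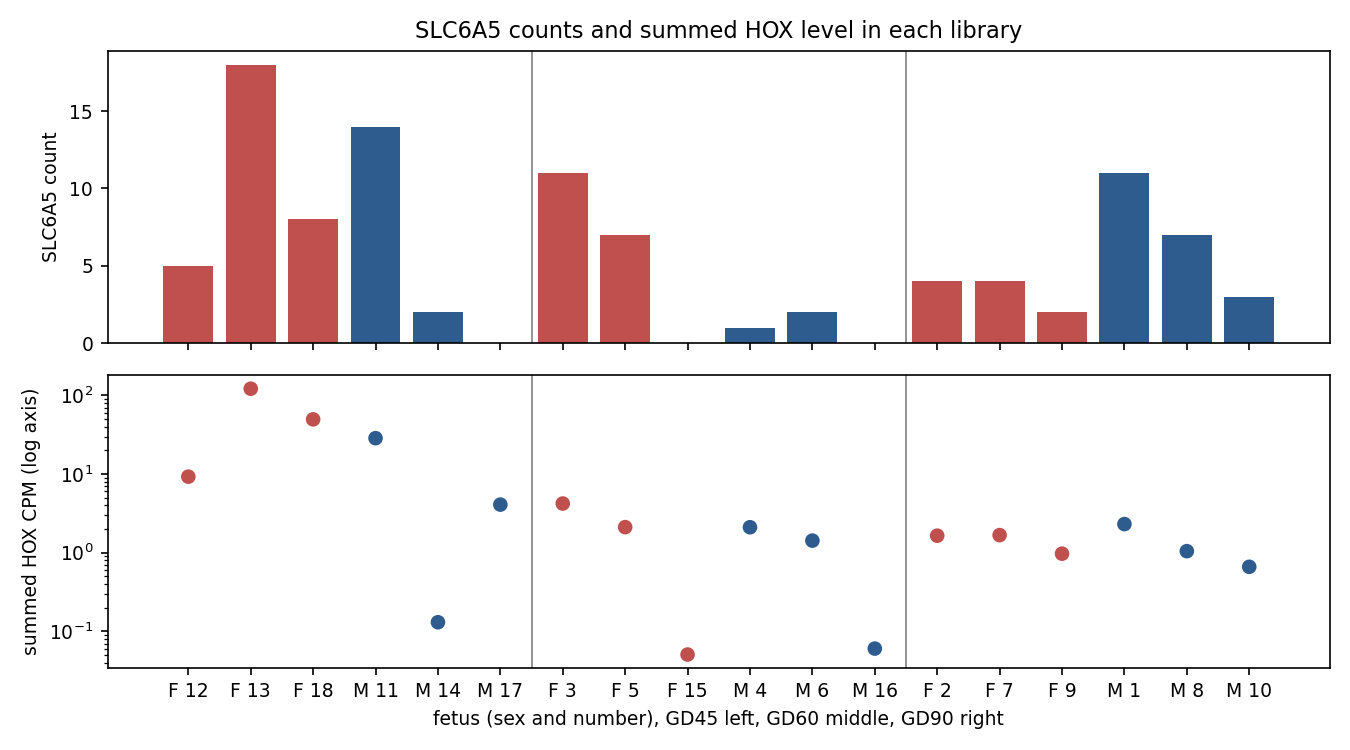
Counts of SLC6A5 (bars, top) and summed CPM of 25 HOX genes (points, bottom, log axis) in each of 18 libraries, ordered by gestation day and sex, with females in red and males in blue. Female 15 and male 16 at GD60 had the lowest HOX sums (0.0507 and 0.0603 CPM) and no SLC6A5 count, and female 13 at GD45 had the highest of both (121.7 CPM and 18 counts).

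Across the 7 genes, 1 rose from GD45 to GD60 in females, where 4.34% of all genes tested rose and 7.22% passed in either direction, and 1 rose in males, where 3.08% rose and 5.61% passed in either direction. In both sexes this was GLRB. From GD60 to GD90, 1 of 7 rose in females (GLRB), against 13.7% of all genes rising and 27.1% passing, and 3 of 7 rose in males (GLRA3, GLRB and GPHN), against 18.5% rising and 34.5% passing. From GD45 to GD90, 3 of 7 rose in females (GLRA3, GLRB and SLC6A9), against 20.0% rising and 38.8% passing, and 4 of 7 rose in males, GPHN in addition, against 23.4% rising and 47.8% passing. GLRA3 passed the filter on low counts only through its GD90 libraries. Its calls of a rise to GD90, and the counts that include it, are therefore not independent of that filter. None of the 7 fell in any of these comparisons, beside 2.88%, 13.4% and 18.9% of all genes in females and 2.53%, 16.0% and 24.3% in males, in the same order. The median log2 change over the 7 genes from GD60 to GD90 was 0.10 in females and 0.36 in males, beside -0.02 and 0.01 over all genes tested. Both steps use the GD60 libraries, so the estimates of consecutive steps are not independent.

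**Figure D5:**
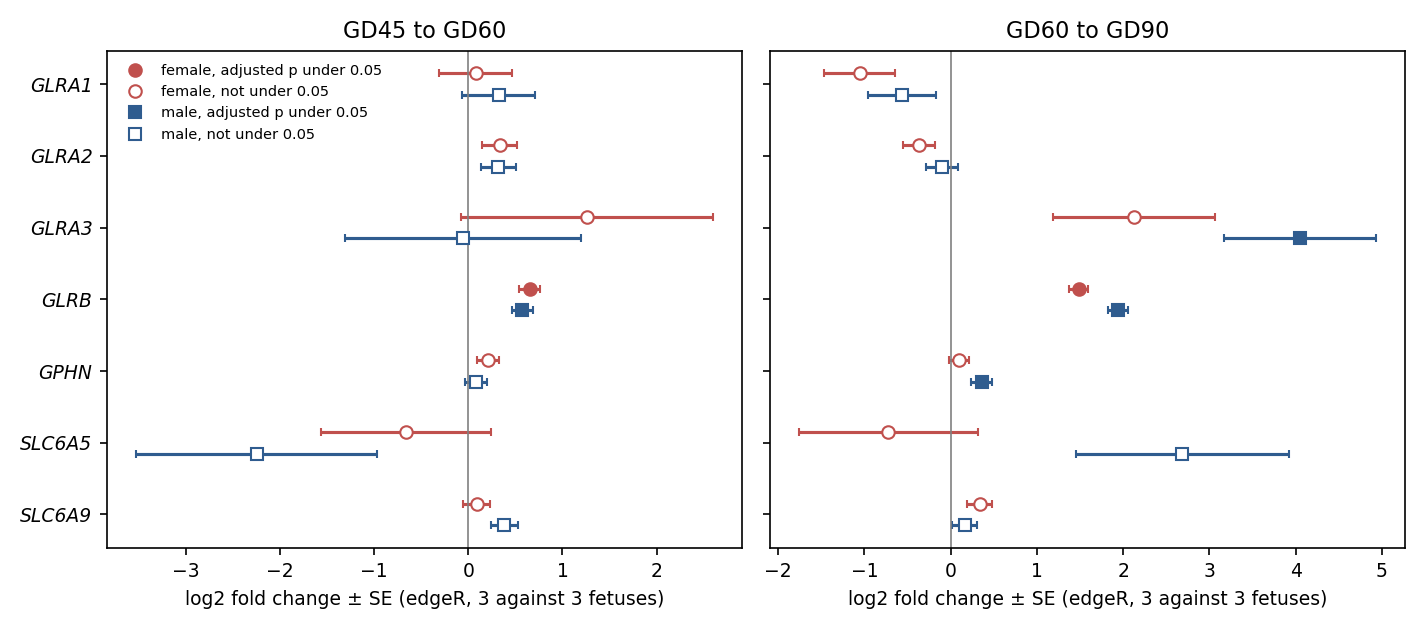
Log2 fold change ± SE from edgeR for each of the 7 genes from GD45 to GD60 (left) and from GD60 to GD90 (right), 3 against 3 fetuses of a sex, with females as circles, males as squares, and filled symbols where the adjusted p was under 0.05. GLRB is filled in both sexes at both steps, GLRA3 and GPHN are filled in males at the second, and the bars of GLRA3 and SLC6A5, with few counts, are the widest.

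Between the sexes at 1 gestation day, none of the 7 genes passed in edgeR, beside 0.0919% of all genes at GD45, 0.098% at GD60 and 0.098% at GD90, and none passed by DESeq2. At an unadjusted p under 0.05 there were 0, 0 and 2 members on the 3 days, beside 2.59%, 4.8% and 13.6% of all genes. Both were at GD90: GLRB, described above, and GLRA3, with 1.66 ± 0.69 in favour of males (adjusted p = 0.35). With the coverage covariate the difference of GLRA3 was 0.0035 (adjusted p = 0.997), and its interaction of sex and day turned from 1.93 to -0.64 (adjusted p = 0.9). None of the 7 genes, and 0.0% of all genes, passed the interaction test of sex and day in either step by edgeR, and none of the 7 passed by DESeq2. At an unadjusted p under 0.05 these counts were 0 for the earlier step and 1, GLRB, for the later, beside 2.04% and 19.8% of all genes.

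Exons were tested for moving apart from the rest of their gene in 5 of the 7 genes, since no exon of GLRA3 or SLC6A5 passed the filter on low counts. Of 36 exons tested, none passed in any of the 4 steps by sex, beside 0.00781% of 76800 exons from GD45 to GD60 and 0.0417% from GD60 to GD90 in females, and 0.0% and 0.0599% in males. At an unadjusted p under 0.05 there were 1 and 0 exons in females and 1 and 5 in males, beside 5.72% and 3.43% of all exons in females and 1.56% and 8.16% in males. The same test between the sexes at GD90, chosen after seeing the data, called 0 of 36 exons and 0.0% of all. At an unadjusted p under 0.05 it had 4 of 36, beside 6.26% of all exons. The exon table held from 23.3% (GLRA2) to 87.3% (GLRB) of a gene's counts.

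Of 17 other genes of glycine metabolism and transport listed, 14 were tested from GD60 to GD90. In females 8 rose and 0 fell, beside 13.7% of all genes rising and 13.4% falling, and in males 7 rose and 1 fell, beside 18.5% and 16.0%. Their median log2 change was 0.72 in females and 0.57 in males, beside -0.02 and 0.01 over all genes tested. PSAT1, an enzyme of serine synthesis upstream of glycine, rose by 1.29 ± 0.12 in females and 1.04 ± 0.12 in males (edgeR adjusted p = 1.14e-06 and 8.42e-06). SLC7A10, a transporter of D-serine and glycine found on astrocytes, rose from 5.82 to 22.8 CPM in females and from 5.21 to 19.2 CPM in males, by 2.04 ± 0.20 and 1.87 ± 0.20 on the log2 scale. SLC6A17, a vesicular transporter of neutral amino acids, rose by 1.29 ± 0.13 and 1.36 ± 0.13, and SLC38A3, a glutamine transporter, by 1.09 ± 0.14 and 0.71 ± 0.13. GLDC, the decarboxylase of the glycine cleavage system, was at 22.6 and 18.3 CPM in females and at 20.4 and 21.0 CPM in males at GD60 and GD90, and did not pass (edgeR adjusted p = 0.191 and 0.913). Astrocyte markers moved over the same step: 4 of 6 tested rose in females and 6 of 6 in males, and their summed level went from 435.2 to 616.8 CPM at GD60 to 1627 to 2174 CPM at GD90. Their part in the result was not tested.

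Of the genes around gephyrin and the inhibitory postsynapse, 19 of 22 listed were tested. From GD60 to GD90, 5 rose and 3 fell in females (median 0.35), and 4 rose and 1 fell in males (median 0.24). Over all genes tested, 13.7% rose and 13.4% fell in females and 18.5% and 16.0% in males, with medians of -0.02 and 0.01. From GD45 to GD60, 3 rose and 1 fell in females, beside 4.34% and 2.88% of all genes. In males 1 rose and 0 fell over that step, beside 3.08% and 2.53% of all genes. KIF5A, a kinesin motor of neurons, rose by 0.80 ± 0.12 in females and 1.16 ± 0.12 in males. NSF, which recycles membrane fusion complexes, rose by 1.36 ± 0.26 and 1.75 ± 0.27, and IQSEC3, a gephyrin-binding exchange factor of inhibitory synapses, rose by 0.91 ± 0.17 and 1.11 ± 0.17. KIF5C, a further kinesin, rose by 1.28 ± 0.21 in males (edgeR adjusted p = 0.000287), and its female estimate of 0.51 ± 0.21 did not pass (adjusted p = 0.085). NLGN2 was matched to no row by name and was not analysed here. In the molybdenum cofactor pathway, the other task of gephyrin, 0 of 6 tested genes passed in females and 1 in males over the step from GD60 to GD90. This was AOX1, an oxidase that uses the cofactor (3.44 ± 0.86, edgeR adjusted p = 0.00571). Its level differed widely between brains at GD90, from 0.737 to 42.6 CPM over both sexes (median 8.81). SUOX, MOCOS and MOCS2, the next genes of this list by p, did not pass in either sex.

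SLC32A1, the vesicular transporter that loads both glycine and GABA, rose from 94.7 to 140.8 CPM in females (0.66 ± 0.15, edgeR adjusted p = 0.00281), and its male estimate of 0.28 ± 0.15 did not pass (adjusted p = 0.137). GAD1, which makes GABA, rose in both sexes, by 0.52 ± 0.19 and 0.86 ± 0.19 (edgeR adjusted p = 0.0461 and 0.0024). GAD2, its sister enzyme, rose in males by 0.64 ± 0.14 (edgeR adjusted p = 0.00275), beside a female estimate of 0.14 ± 0.14 (adjusted p = 0.499). SLC12A5, the chloride exporter KCC2, rose from 238.2 to 410.1 CPM in females and from 206.4 to 506.5 CPM in males, by 0.88 ± 0.21 and 1.28 ± 0.21 (edgeR adjusted p = 0.00478 and 0.000246), in the same step as the neuronal markers named above. SLC12A2, the chloride importer NKCC1, rose in males by 0.75 ± 0.22 (edgeR adjusted p = 0.0134), beside a female estimate of -0.06 ± 0.22 (adjusted p = 0.875).

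Of 14 listed factors that specify glycinergic and other inhibitory neurons of the hindbrain and spinal cord, 13 were tested. From GD45 to GD60, 3 of 13 fell in females and 2 in males and none rose, where 2.88% and 2.53% of all genes fell, with medians of -1.63 and -1.47 beside 0.01 and -0.04 over all genes tested. From GD60 to GD90, 3 of 13 fell in females and 0 in males, where 13.4% and 16.0% of all genes fell. From GD45 to GD90, 12 of 13 fell in females and 5 in males, where 18.9% and 24.3% of all genes fell. DBX1, EVX1, LBX1 and PTF1A passed the filter on low counts only through GD45 libraries. DBX1, for example, was at 2.35 to 5.12 CPM at GD45 and at most 0.712 and 0.132 CPM at GD60 and GD90. Their falls from GD45, and the counts that include them, are not independent of that filter. DBX1, a progenitor factor, fell by 3.97 ± 0.59 in females and by 2.88 ± 0.54 in males from GD45 to GD60 (edgeR adjusted p = 0.000844 and 0.00443), and LHX5 fell by 1.74 ± 0.33 and by 1.82 ± 0.34. TFAP2A fell by 1.68 ± 0.42 in females (edgeR adjusted p = 0.0232), and its male estimate was -1.03 ± 0.43 (adjusted p = 0.204). GATA3 did not pass at this step in either sex. Over the same step 5 of 10 tested HOX genes fell in females and 0 in males, beside 2.88% and 2.53% of all genes. HOX genes such as HOXA5 and HOXB5 passed the filter on low counts only through GD45 libraries. They reached 25.0 and 22.7 CPM at GD45 and at most 0.063 and 0.059 CPM at GD60. Falls of such genes from GD45 are not independent of that filter. The part of posterior content in the result was not tested. Forebrain factors moved too, from GD60 to GD90, when 6 of 12 fell in females and 7 of 12 in males.

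The genes most like each of the 7 were found by Pearson's correlation of log2 CPM over the 18 libraries, among 12808 named genes with a mean of at least 1 CPM. The libraries share their day, depth and coverage, so these values describe likeness only. GLRB was closest to FBXW7 (r = 0.991), OSBP2 (0.99) and BRINP1 (0.989). GLRA2 was closest to B3GALT2 (0.887), PID1 (0.884) and USP27X (0.861). GPHN was closest to LCLAT1 (0.944), and SLC6A9 to IFNGR2 (0.927). GLRA3 was closest to KIF5C (0.955) and SLC6A5 to CYP26B1 (0.836), while the highest value for GLRA1 was 0.791, with ARFGAP3.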

How the data were processed

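Per the labels and the study's methods, oligo(dT)-selected RNA of each brain was sequenced as paired reads of 150 bases. The authors checked reads with FastQC, trimmed them with Trimmomatic, aligned them to Sscrofa11.1 with HISAT2 and deposited featureCounts counts of reads per gene and per exon on the Ensembl annotation. Strand and multi-match settings are not given in the sources used here. Repeat runs of 4 libraries were summed (22 columns, 18 libraries). Genes passing filterByExpr (16325 of 31908) were fitted with edgeR 4.0.16 in R 4.3.3 (TMM factors, quasi-likelihood test, 6 groups of sex and day), with Benjamini-Hochberg adjustment and a threshold of 0.05. SE is the log2 fold change divided by the root of F. All 7 members passed the filter, GLRA3 only through its GD90 libraries. Exon usage was tested with diffSpliceDGE. FPKM was computed from gene length and library total, and littermates were averaged before exact permutation tests. All members were named, with the 4 genes of each pathway list with the smallest p on average over the sexes, and SLC32A1, GAD1, GAD2, NLGN2, GLDC, SLC12A2 and SLC12A5 whatever they did; a further gene of this rule is not reported here. The members and the lists were chosen with earlier results of these data known. Sequences and positions are from the Sscrofa11.1 assembly. The tests were tried on simulated data. Alternatives included DESeq2 1.42.0, other scalings and filters, leaving out libraries, litter sums and a litter block. No source states that fetuses came from separate dams beyond litter size, so p-values measure the spread between these fetuses.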

Additional observations from a re-analysis of the deposited data

Results flagged for a closer look

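In each of 21 sets of 6 fetuses (7 genes on 3 days), the highest and the lowest fetus were compared with the rest by the gap to the nearest other fetus over the range of the 6, against Dixon's critical value for a 95% level. Chance alone places about 1 in 20 such sets past it. In 3 sets a fetus stood apart. GLRA3 in male GD45 fetus 14 was the highest of its day at 0.196 CPM, or 3 counts, with the next at 0.0569 CPM. GPHN in male GD45 fetus 17 was the lowest of its day at 43.6 CPM, with the next at 53.4 CPM, and this library also had the lowest coverage ratio, 0.247. GPHN in female GD60 fetus 15 was the highest of its day at 74.3 CPM, with the next at 59.5 CPM.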

How the results depend on the processing

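Of the log2 changes of single genes under all alternatives, 971 kept direction and side of the threshold, 27 lost a call, 27 gained one and 37 turned in sign. Counts of called members stayed within 1.5 times in 179 cases and moved in 11. The cause was not tested for any of these. The number called from GD60 to GD90 in females, 1 of 7, was 3 by the likelihood ratio test, 4 without the GD45 litter of 8, 3 with only the 6 libraries compared, 2 with littermates summed and 3 with the coverage covariate. From GD45 to GD60 in males it was 0 with only the 6 libraries. Leaving out 1 library at a time gave 2 to 5 from GD45 to GD90 and 1 to 3 from GD60 to GD90 in females, 0 to 1 for the interaction from GD60 to GD90 and 0 to 1 member exons from GD45 to GD60 in females.

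Signs turned mainly for estimates near 0 or with few counts. Without the GD45 litter of 8, GLRA1 (-0.23), SLC6A9 (-0.058) and GLRA4 (-0.44) turned from GD45 to GD60 in females, and GLRA2 (-0.010) and SLC6A5 (-0.067) from GD45 to GD90 in males. With the coverage covariate, GLRA3 turned from GD45 to GD60 in females (-0.38) and males (0.13) and in the interaction (-0.64), SLC6A5 from GD60 to GD90 in females (0.12), from GD45 to GD90 in males (-1.05) and between the sexes at GD90 (-0.47), and GLRA2 between the sexes at GD90 (-0.084). With littermates summed, SLC6A5 turned from GD60 to GD90 in females (0.61) and from GD45 to GD90 in males (-0.49), GLRA2 from GD45 to GD90 in females (0.071) and GLRA3 from GD45 to GD60 in males (0.58). On its last exon GLRB turned between the sexes at GD90 (-0.18) and in the interaction (-0.18).

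Leaving out 1 library at a time, the ranges that crossed 0 in females from GD45 to GD60 were -0.23 to 0.41 for GLRA1, -0.65 to 0.77 for GLRA4, -1.43 to 0.0077 for SLC6A5 and -0.053 to 0.21 for SLC6A9. Those from GD45 to GD90 were -0.20 to 0.076 for GLRA2 in females, -0.0085 to 0.39 for GLRA2 in males, -0.47 to 0.020 for GLRA1 in males and -0.064 to 2.52 for SLC6A5 in males. The others were -3.59 to 1.18 for GLRA3 from GD45 to GD60 in males, -0.0078 to 0.28 for GPHN and -1.34 to 0.039 for SLC6A5 from GD60 to GD90 in females, and -0.010 to 0.046 for GLRA2 and -0.14 to 0.019 for SLC6A9 between the sexes at GD90. With CPM in place of FPKM, the share of GLRA1 was 4.85%, 4.60% and 3.11% and that of GLRA2 95.02%, 95.2% and 94.8% at GD45, GD60 and GD90, the ratio of summed alpha to GLRB was 3.16 at GD60 and 0.828 at GD90, and that of GPHN to GLRB was 4.83, 3.48 and 1.25.

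With the litter as a replicate block, 0 members were called between the sexes on each day and 0 in both interactions, as without it, and the interaction of GLRB was 0.46 (edgeR adjusted p = 0.219). Depth limits GLRA3, SLC6A5 and GLRA4, with 10 or more counts in 4, 4 and 6 of 18 libraries.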
